A study of Mus musculus with 5 samples.

Results

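The NRF2 target genes described here are 10 genes fixed by name: Nfe2l2, Keap1, Gclc, Gclm, Slc7a11, Srxn1, Txnrd1, Nqo1, Cbr3 and Hmox1. They were found on the arrays through the RefSeq accession of each non-control probe, which gave 15 probes for 10 of the 17016 named genes, out of 41174 probes in all. The arrays, Agilent oligonucleotide arrays read in 2 colours, held RNA of 5 livers numbered 1 to 5. The labels give male C57BL/6N mice, an ethanol diet lasting 8 weeks and then 3 binges of ethanol at 5 g/kg, so the 5 samples form 1 group, and they do not say whether each sample is a separate animal. On every array the liver carried the dye Cy5, and a purchased RNA (Ambion Mouse Assorted Total RNA, with C57BL/6N and liver given as strain and tissue) carried Cy3 as the common reference. No liver of mice on a control diet was analysed here, so each log2 ratio below sets an ethanol-fed liver against that reference RNA and does not measure an effect of ethanol.

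NRF2, the product of Nfe2l2, is a transcription factor that drives genes of antioxidant defence. KEAP1 binds it in the cytoplasm and delivers it to a cullin ubiquitin ligase for degradation, and electrophiles or oxidants that modify KEAP1 let newly made NRF2 reach the nucleus. There it pairs with small MAF proteins on antioxidant response elements in its targets, which in hepatocytes include the enzymes of glutathione synthesis, quinone reduction and thioredoxin recycling. Because this control acts on the protein, the mRNA of Nfe2l2 need not follow the activity of NRF2.

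The antioxidant response element, on which NRF2 acts in its targets, is shown first. The members were fixed by name and not by this element. RefSeq promoter windows of 300 bases (250 before to 50 after a start, build GRCm38.p6) were matched for 8 of the 10 members, 10 windows in all, while Gclc and Hmox1 had none in the table used. The letters TGACNNNGC, searched on both strands, occurred in 4 of these 10 windows and in 12.4% of all 32851 windows. The variant TGAGNNNGC, added after the first search, occurred in 2 of the 10, those of Srxn1 and Slc7a11, and in 17.6% of all; 5 of the 10 and 27.8% of all held either. These letters can overlap those of the AP-1 motif TGAGTCA. The windows of Keap1, Nqo1 and Cbr3 held no match, and bases outside the windows were not searched. The 4 windows with TGACNNNGC are those of Nfe2l2 at chr2:75704614-75704913 (minus strand), Gclm at chr3:122245307-122245606 (plus), Srxn1 at chr2:152105274-152105573 (plus) and 1 of 3 starts of Txnrd1 at chr10:82858956-82859255 (plus). Capitals mark the matches to either set of letters, read 5′ to 3′ along the gene:
Nfe2l2: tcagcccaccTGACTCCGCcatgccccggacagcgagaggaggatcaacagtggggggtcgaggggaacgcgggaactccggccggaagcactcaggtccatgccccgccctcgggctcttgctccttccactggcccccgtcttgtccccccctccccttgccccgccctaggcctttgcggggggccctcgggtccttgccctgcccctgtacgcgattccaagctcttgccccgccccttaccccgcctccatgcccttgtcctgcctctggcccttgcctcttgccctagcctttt
Gclm: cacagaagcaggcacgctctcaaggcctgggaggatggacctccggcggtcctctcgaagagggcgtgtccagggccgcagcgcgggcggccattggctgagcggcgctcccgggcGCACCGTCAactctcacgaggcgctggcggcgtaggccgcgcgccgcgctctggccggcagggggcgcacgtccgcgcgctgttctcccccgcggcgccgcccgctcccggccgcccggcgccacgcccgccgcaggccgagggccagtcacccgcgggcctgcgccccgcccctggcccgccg
Srxn1: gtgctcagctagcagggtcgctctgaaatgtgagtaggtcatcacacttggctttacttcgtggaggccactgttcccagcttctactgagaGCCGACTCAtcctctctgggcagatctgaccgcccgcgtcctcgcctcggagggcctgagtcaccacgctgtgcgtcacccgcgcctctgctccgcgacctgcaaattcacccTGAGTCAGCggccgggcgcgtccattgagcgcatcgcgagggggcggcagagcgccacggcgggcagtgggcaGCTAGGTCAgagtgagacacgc
Txnrd1: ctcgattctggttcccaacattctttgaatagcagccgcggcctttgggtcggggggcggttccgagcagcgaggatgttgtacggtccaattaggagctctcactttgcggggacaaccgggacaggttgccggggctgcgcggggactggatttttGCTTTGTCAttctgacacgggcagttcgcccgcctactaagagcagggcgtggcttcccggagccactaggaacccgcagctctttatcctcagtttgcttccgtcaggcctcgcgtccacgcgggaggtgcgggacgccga
The Srxn1 window held 3 matches, 1 of TGACNNNGC after the start and 2 of TGAGNNNGC before it, of which TGAGTCAGC lay 45 bases before the start. A match is a description of the letters, and no binding was measured here.

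The median background-subtracted signal of an array ranged from 77.4 to 176 for liver and from 74.0 to 149 for the reference. Array 1 was the dimmest in both channels, so its unscaled signals below are low in part for that reason. Across genes, which are not independent replicates, Pearson's r of the log2 ratios ranged from 0.39 to 0.76 among pairs of livers. Tests covered probes with 3 or more usable spots whose liver or reference signal stood well above background on 3 or more arrays. A gene is represented by its brightest tested probe. Of 8 hepatocyte markers 5 were tested (Alb, Ttr, Apoa1, Hnf4a and Ass1), and these 5 were, for the livers and the reference alike, well above background on every array, with a summed signal of 301679 to 394089 in liver and 185274 to 243861 in the reference. Alb, at 1.15, was higher than the reference past 2-fold and Apoa1 (0.94) was higher, Ass1 (-0.58) was lower, and Ttr (0.23) and Hnf4a (-0.09) did not pass the test.

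Of the 10 members, 9 were tested, and the mean log2 ratio was below 0 for 9 of 9, against 53.2% of the 14917 genes tested. At an adjusted p below 0.05 (limma, Benjamini-Hochberg over all 31887 probes tested) 6 members were lower than the reference and 0 higher, while 13.0% of all genes were lower and 14.5% higher. These 6 were Cbr3, Gclc, Nqo1, Nfe2l2, Srxn1 and Txnrd1. With a ratio of at least 2-fold required as well, 1 member, Cbr3, was lower and 0 were higher, against 0.429% and 0.871% of all genes. Counted by probe, 8 of 11 member probes were lower and 0 higher (11.5% and 16.2% of all probes tested), and 1 was lower and 0 higher at 2-fold (0.320% and 1.20%). The ratio lay below 0 in every liver measured for 5 members (20.0% of all genes) and above 0 in every liver for 0 (19.1%), and the median of the 9 means was -0.36 against -0.02 over all genes. Of these 5 members, Srxn1 was measured in 3 livers and Nfe2l2 in 4. Another Srxn1 probe, with 5 values, was above 0 in liver 1 (0.10), while the other Nfe2l2 probe was below 0 in all 5. With median centring in place of loess, the mean of every tested member except Nqo1 moved further below 0. Keap1 was then at -0.31, Gclm at -0.37, the brightest Srxn1 probe at -0.59, Txnrd1 at -0.44 and Hmox1 at -0.25. Gclc was at -0.91, Cbr3 at -1.25 and the brighter Nfe2l2 probe at -0.55, while Nqo1 was at -0.36. In bulk liver, fewer cells of a type and less RNA per cell cannot be told apart.

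**Figure D1:**
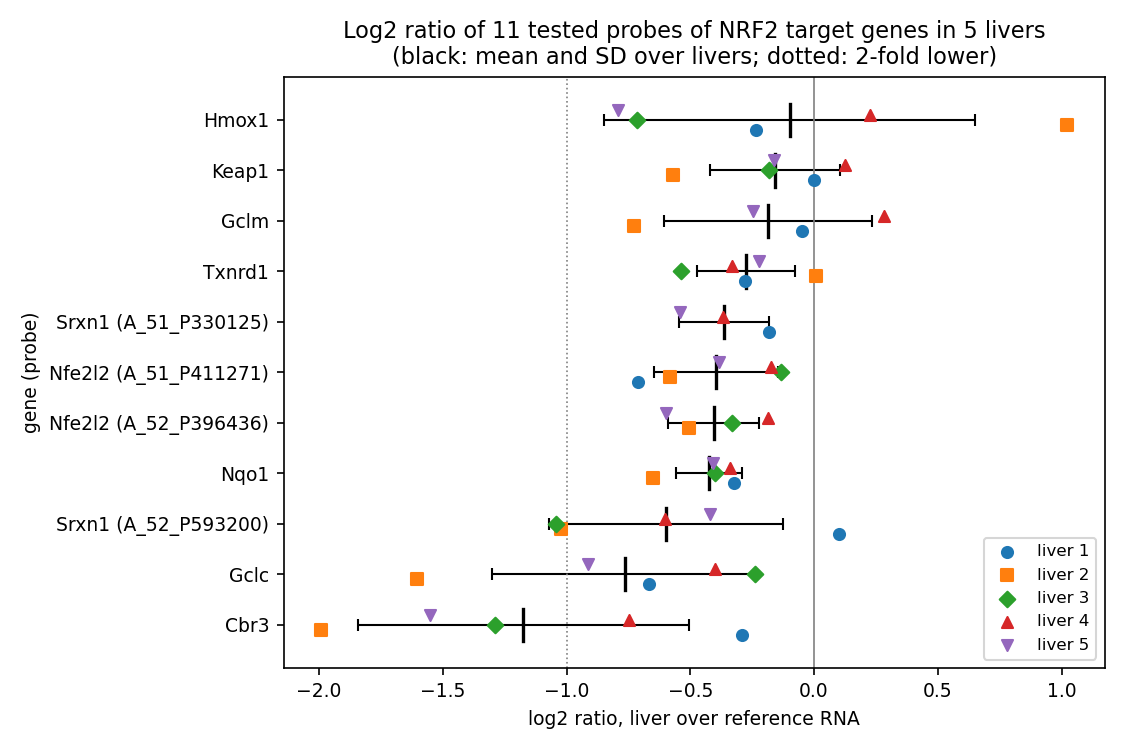
Log2 ratio of liver over reference RNA (horizontal axis) for the 11 tested probes of the NRF2 target genes; each symbol is 1 liver, black bars are the mean and SD over livers, and the dotted line marks 2-fold lower. Liver 2 lies lowest for Cbr3, Gclc, Nqo1, Gclm and Keap1 and highest for Hmox1.

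Among the regulators, Nfe2l2 was lower than the reference, by amounts that differed between livers. Its brighter probe gave log2 ratios of -0.50, -0.33, -0.19 and -0.60 in livers 2 to 5, and the liver 1 spot was marked non-uniform in the liver channel and left out. The mean was -0.41 ± 0.18 (SD, n = 4), or 1.32-fold lower, with a limma adjusted p of 0.0195. The other probe of Nfe2l2 had all 5 spots, at -0.71, -0.58, -0.13, -0.18 and -0.38 in livers 1 to 5, with a mean of -0.40 ± 0.25 (SD, n = 5, limma adjusted p = 0.0202). The probes thus gave nearly the same mean, and all 9 of their values lay below 0. The limma adjusted p rose to 0.0597 without liver 2 and 0.0687 without liver 5 for the brighter probe, and to 0.0547 without liver 1 and 0.0611 without liver 2 for the other.

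Keap1, the adaptor that keeps NRF2 low, did not pass the test. Its ratios were 0.00, -0.57, -0.18, 0.13 and -0.16 in livers 1 to 5, with a mean of -0.16 ± 0.26 (SD, n = 5, limma adjusted p = 0.274). Liver 2 was the lowest and liver 4 the highest, the values lay on both sides of 0, and the mean was -0.054 without liver 2.

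Glutathione synthesis begins with glutamate-cysteine ligase, of which Gclc encodes the catalytic and Gclm the modifier subunit. Gclc stood at -0.67, -1.61, -0.24, -0.40 and -0.91 in livers 1 to 5. Its mean was -0.77 ± 0.54 (SD, n = 5), or 1.70-fold lower, with a limma adjusted p of 0.0159. All 5 livers were below 0, but by amounts that differed from liver to liver, and the mean was -0.56 without liver 2. The adjusted p was 0.0533 without liver 5.

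Gclm stood at -0.05, -0.73, 0.28 and -0.25 in livers 1, 2, 4 and 5, the liver 3 spot being non-uniform. Its mean of -0.19 ± 0.42 (SD, n = 4) did not pass the test (limma adjusted p = 0.388) and was -0.0055 without liver 2 and -0.34 without liver 4. For both subunits liver 2 gave the lowest ratio.

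Slc7a11, the cystine carrier that supplies cysteine for glutathione, was not well above background in either channel on any array, with any of its 3 probes. Their background-subtracted signal ran from -6.57 to 13.8 for liver and from -10.2 to 13.5 for the reference. No ratio or fold is given for this gene, and a level below that of background cannot be told from no transcript.

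In the thioredoxin system, Txnrd1 encodes the cytosolic thioredoxin reductase and Srxn1 the sulfiredoxin that restores overoxidised peroxiredoxins. Txnrd1 stood at -0.28, 0.01, -0.54, -0.33 and -0.22 in livers 1 to 5, with a mean of -0.27 ± 0.20 (SD, n = 5), or 1.21-fold lower (limma adjusted p = 0.0439). This call was lost without liver 1 (0.0790 as limma adjusted p), 3 (0.137), 4 (0.133) or 5 (0.0789). Txnrd1 had the smallest mean among the 6 members that passed.

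Srxn1 has 3 probes. The brightest gave -0.18, -0.37 and -0.54 in livers 1, 4 and 5, a mean of -0.36 ± 0.18 (SD, n = 3, limma adjusted p = 0.0424), the spots of livers 2 and 3 being non-uniform. That adjusted p was 0.0528 without liver 3, which has no value of its own in this probe. With the non-uniform spots kept, livers 2 and 3 read -0.18 and -0.28, near the others, and the mean was -0.33. A dimmer probe stood at 0.10, -1.02, -1.04, -0.60 and -0.42 in livers 1 to 5, a mean of -0.60 ± 0.47 (SD, n = 5, limma adjusted p = 0.0237). The 2 means shared a direction, but in liver 1 the probes lay on opposite sides of 0. They also differed in livers 2 and 3, where the brightest probe had only the non-uniform spots. The adjusted p of the dimmer probe was between 0.0669 and 0.0722 without liver 2, 3 or 4. The remaining probe kept 2 usable spots, in livers 1 and 5, and was not tested.

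The reductases Nqo1, a quinone reductase and a classical readout of NRF2, and Cbr3, a carbonyl reductase, were the members most clearly below the reference. Nqo1 stood at -0.32, -0.65, -0.40, -0.34 and -0.41 in livers 1 to 5, with a mean of -0.42 ± 0.13 (SD, n = 5), or 1.34-fold lower (limma adjusted p = 0.00250). All 5 livers were below 0, liver 2 by the most and the others between -0.41 and -0.32. The probe was dim, with a signal of 19.0, 36.7, 80.7, 50.5 and 28.2 in liver and 35.3, 85.0, 87.4, 98.1 and 87.7 in the reference. The offset of 50 added to both channels is large beside these signals. In the processed signals of the scanner software the mean was -1.11 and Nqo1 passed the 2-fold limit.

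Cbr3 stood at -0.29, -1.99, -1.29, -0.75 and -1.55 in livers 1 to 5. Its mean was -1.17 ± 0.67 (SD, n = 5), or 2.26-fold lower, with a limma adjusted p of 0.00846. Every liver was below 0, liver 2 by the most and liver 1 by the least. Without liver 2 the mean was -0.97 and short of 2-fold, and in the processed signals it was -1.58.

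Hmox1 encodes heme oxygenase 1, which opens the heme ring and is induced by heme and oxidants, and it was the member with the widest spread. Its ratios were -0.23, 1.02, -0.72, 0.22 and -0.79 in livers 1 to 5, a range of 1.81. The mean was -0.10 ± 0.75 (SD, n = 5, limma adjusted p = 0.798), so no mean difference of Hmox1 from the reference was detected. Liver 2 was the highest and was above the reference, while livers 3 and 5 were below it. The mean was -0.38 without liver 2, and turned to 0.056 without liver 3 and 0.074 without liver 5.

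The spread between livers was tested by setting each probe's variance against that of probes of like brightness (F test on the limma prior variance). After adjustment, 0 of 12014 genes passed, and 5.52% had an unadjusted p below 0.05. Among the members, the unadjusted p was 0.00694 for Hmox1, 0.0145 for Cbr3 and 0.0290 for Gclc, with SDs of 0.75, 0.67 and 0.54. Probes of their brightness had a prior SD of 0.20, 0.21 and 0.20. The normalized log2 signal of Cbr3 had an SD of 0.84 in the reference and 0.51 in liver. The dimmer probe of Srxn1 had an unadjusted p of 0.0447, and the probes of Keap1, Txnrd1, Nqo1 and the dimmer one of Nfe2l2 had p of at least 0.265.

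The lowest and highest ratio of each member were counted by liver. Liver 2 held the lowest ratio of 5 of the 8 members measured there, Keap1, Gclc, Gclm, Nqo1 and Cbr3. It held the highest of 2 of the 8, Hmox1 and Txnrd1, and Txnrd1 was only at 0.01 there. Over 13705 genes with all 5 values, liver 2 was the lowest for 27.7% and the highest for 23.2%. The share of members highest in liver 2 was thus near that of all genes. Of the members just named, Gclm had no value in liver 3. Liver 5 held the lowest ratio of 3 of 9 members, Hmox1, Nfe2l2 and Srxn1, and all 9 members were below 0 there. Only Hmox1 of these had all 5 values, and 18.9% of the genes with all 5 values were lowest in liver 5. The brightest Srxn1 probe had values in livers 1, 4 and 5, and the brighter Nfe2l2 probe had none in liver 1. Their other tested probes, with all 5 values, were lowest in liver 3 for Srxn1 and liver 1 for Nfe2l2. The median over the members was -0.26, -0.61, -0.40, -0.33 and -0.54 in livers 1 to 5, while the median over all genes was between -0.02 and 0.00.

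The ratios were then split into their channels (log2 signal after loess and quantile normalization of the mean brightness across arrays), since a ratio moves with the reference as well as with the liver. For Hmox1 the liver channel stood at 10.10, 11.94, 10.12, 11.15 and 10.09 on arrays 1 to 5, and the reference at 10.33, 10.92, 10.84, 10.93 and 10.88. The height of liver 2 was thus in the liver channel, while the reference on array 1 was lower than on the others. The unscaled, background-subtracted signal of Hmox1 in liver was 754, 3770.5, 1397, 2239.9 and 916 on arrays 1 to 5.

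For Cbr3 the picture differed. Its liver channel was lowest on array 1, at 7.20, against 7.56, 8.08, 8.54 and 7.66 on arrays 2 to 5. The reference channel stood at 7.49 on array 1 and at 9.55, 9.36, 9.28 and 9.21 on the others. In background-subtracted signal the reference read 81.9 on array 1 and 689.6, 652, 707 and 693 on arrays 2 to 5. The ratio of liver 1, the nearest to 0, thus came with the dimmest liver signal of the 5 and a reference signal far below that of the other arrays. The SD of the Cbr3 reference channel over arrays, 0.84, was exceeded by 0.200% of the 24009 probes that stood above background for liver and reference alike on every array, whose median SD was 0.15. Without liver 1 the mean ratio of Cbr3 was -1.39.

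Gclc and the dimmer Srxn1 probe also had their lowest reference signal on array 1, at 10.21 against 10.86 to 11.15 for Gclc and 7.45 against 8.13 to 8.27 for Srxn1. The same held, by less, for Nqo1 (6.88 against 7.07 or more) and the brightest Srxn1 probe (12.35 against 12.67 or more). It also held for Txnrd1 (11.66 against 11.78 or more) and Gclm (10.46 against 10.53 or more), but not for Keap1 or Nfe2l2. The share of all probes with their lowest reference signal on array 1, by any amount, was not computed. A low reference on array 1 can therefore not be called particular to the members. In the liver channel Gclc stood at 9.54, 9.26, 10.78, 10.75 and 10.22 on arrays 1 to 5, so livers 1 and 2 were both low, whereas the ratio set liver 2 apart. For Keap1, Gclm and Txnrd1 the reference was steadier, with SDs of 0.14, 0.11 and 0.10 over arrays against 0.39, 0.40 and 0.22 in liver. Whether the reference RNA on array 1 was the same preparation as on the others was not tested.

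**Figure D2:**
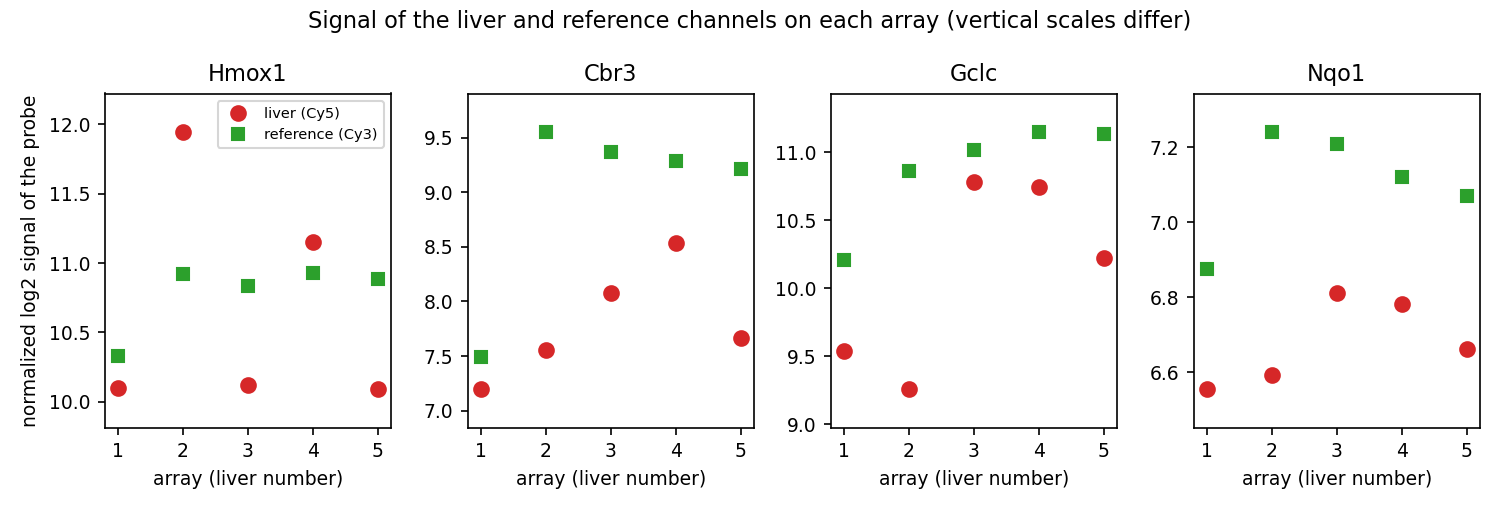
Normalized log2 signal (vertical axis, a scale of its own in each panel) of the probes of Hmox1, Cbr3, Gclc and Nqo1 on the 5 arrays; circles are the liver channel and squares the reference channel. The reference signal is lowest on array 1 in all 4 panels, by the most for Cbr3 (7.49 against 9.21 or more), while the highest Hmox1 value is that of liver 2 (11.94).

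Other genes of the pathway, 64 genes in 8 lists by role, were set beside the members. Of the 56 that were tested, 22 were lower and 2 higher at an adjusted p below 0.05 (limma), 6 were lower and 0 higher with 2-fold required, and the median ratio was -0.22. Over all genes tested, 13.0% were lower and 14.5% higher at that limit, and 0.429% and 0.871% with 2-fold required. These shares stand beside the count of each list below. Genes of NADPH supply had 4 of 5 tested genes lower, with a median of -0.79. Me1, the cytosolic malic enzyme, was at -1.99, -2.46, -1.34, -2.39 and -1.59 in livers 1 to 5, a mean of -1.95 ± 0.49 (SD, n = 5, limma adjusted p = 0.000248), and all 5 livers were past 2-fold. Taldo1, of the pentose phosphate pathway, had the highest mean in this list, -0.14 (limma adjusted p = 0.166), and was at -0.25 and past the test in the processed signals (limma adjusted p = 0.0269).

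The conjugation and export list had 7 of 12 tested genes lower and 4 of them past 2-fold, all glutathione S-transferases, which join glutathione to electrophiles. Gsta2 was at -2.18 ± 0.51, Gstm3 at -1.98 ± 0.40, Gstm1 at -1.42 ± 0.65 and Gstm4 at -1.11 ± 0.29 (SD, n = 5 each, limma adjusted p between 9e-05 and 0.00463). Members of these families are close in sequence, so their probes may share signal. Gsta2, whose liver signal was well above background on 4 of 5 arrays, reached -3.96 in the processed signals. The export pump gene Abcc2 was the highest of this list, at 0.00 ± 0.36 (SD, n = 5).

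Quinone, carbonyl and epoxide enzymes had 5 of 9 tested genes lower and 1 higher. Ugdh, which makes the sugar acid for glucuronidation, was at -1.03 ± 0.40 (SD, n = 5, limma adjusted p = 0.00134) and past 2-fold, but was at -0.95 without liver 1 and -0.92 without liver 2. The aldehyde oxidase gene Aox1, the most variable here, was at -0.61 ± 0.41 (SD, n = 5, limma adjusted p = 0.0133). Pir, which encodes pirin, was higher, at 0.49 ± 0.25 (SD, n = 5, limma adjusted p = 0.00638), a call lost with median centring (0.0709).

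Glutathione use and recycling had 1 of 6 lower and 1 higher: the glutathione peroxidase gene Gpx4 at -0.38 ± 0.12 and the glutathione synthetase gene Gss at 0.35 ± 0.14 (SD, n = 5 each, limma adjusted p = 0.00558 and 0.0118). The call of Gss was lost with median centring (limma adjusted p = 0.337) and without liver 4 (0.0559). Gclc, which acts one step before Gss, was on the other side of 0. Slc3a2, the partner chain of Slc7a11, was at 0.11 ± 0.28, with another probe at -0.15. The thioredoxin and peroxiredoxin list had 1 of 5 lower, the mitochondrial thioredoxin reductase gene Txnrd2 at -0.46 ± 0.21 (SD, n = 5, limma adjusted p = 0.00782), while Sesn2 was at 0.20 ± 0.04 (0.035 with median centring) and Prdx6 at -0.25 ± 0.29 (-0.39 without liver 3).

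Partners and regulators of NRF2 had 2 of 12 tested genes lower, close to the 13.0% of all genes. Cul3, the cullin that KEAP1 works with, was at -0.39 ± 0.24 (SD, n = 5, limma adjusted p = 0.0184). Bach1, a repressor of Hmox1 that competes for the same elements, did not pass, at -0.33, 0.58, -0.68, -0.29 and -0.56 in livers 1 to 5 (limma adjusted p = 0.270). Its value in liver 2 was the highest, as for Hmox1, and without liver 2 it was at -0.46 (limma adjusted p = 0.0152). The call of Cul3 was lost without liver 2, 3 or 4 (limma adjusted p between 0.0539 and 0.0666). Rbx1, the ligase's ring protein, was at 0.11 ± 0.09.

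Heme and iron genes had 2 of 6 lower, the ferritin light chain gene Ftl1 at -0.51 ± 0.21 and the biliverdin reductase gene Blvrb at -0.38 ± 0.33 (SD, n = 5 each, limma adjusted p = 0.00390 and 0.0411), the call of Blvrb being lost without liver 1, 2, 4 or 5 (0.0670 to 0.0970). Ftl1 was at -0.78 in the processed signals. Hmox2, the constitutive heme oxygenase gene, was at 0.24 ± 0.23 (SD, n = 5, limma adjusted p = 0.0893).

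Osgin1, an NRF2 target induced by oxidative stress and the single gene of the remaining list, varied more between livers than any member. Its brighter probe was at 0.53, -1.67, 0.26, 1.41 and 0.76 in livers 1 to 5, and its other probe at 0.45, -1.72, 0.11, 1.34 and 0.73. Both probes gave liver 2 as the lowest and liver 4 as the highest, and in liver 2 Osgin1 and Hmox1 lay at opposite ends of their ranges. The mean of the brighter probe was 0.26 ± 1.16 (SD, n = 5, limma adjusted p = 0.667), and 0.74 without liver 2 (limma adjusted p = 0.0230). Its variance had an unadjusted p of 0.000641 and did not pass after adjustment.

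**Figure D3:**
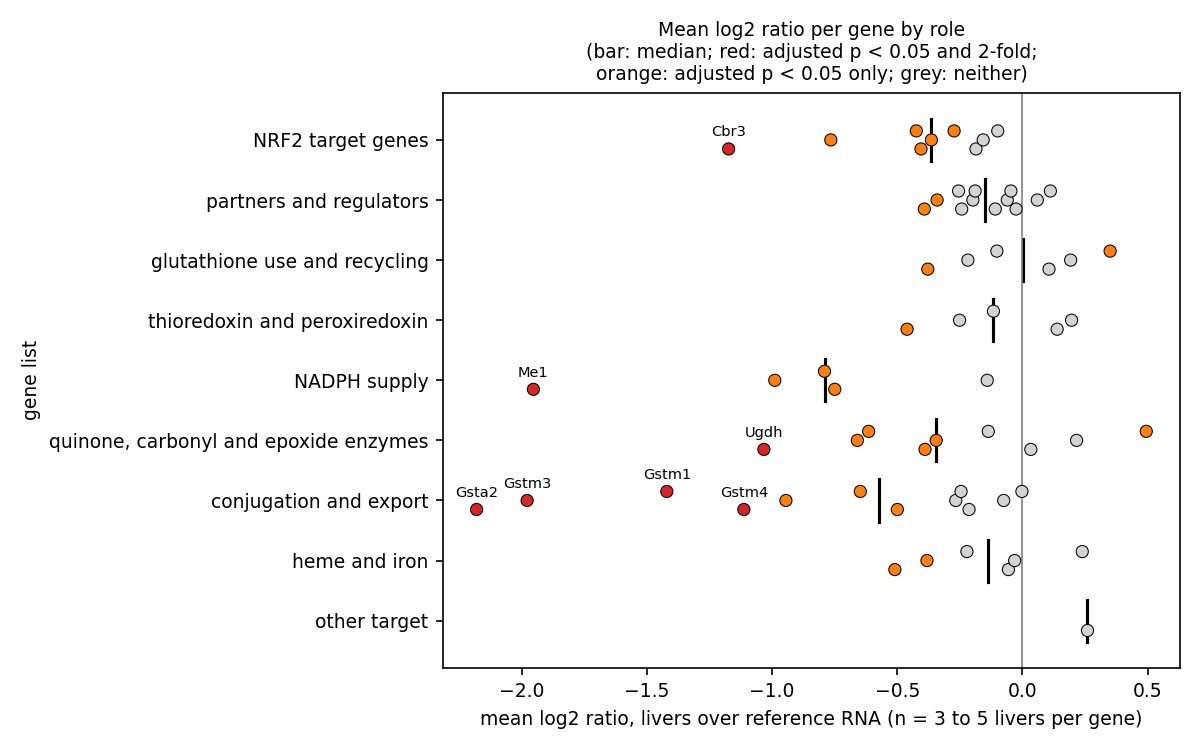
Mean log2 ratio of livers over reference RNA (horizontal axis) for each tested gene, in rows by role; each circle is 1 gene, black bars are list medians, red marks genes past adjusted p and 2-fold, and orange those past adjusted p alone. The row of NRF2 target genes has a median of -0.36 and that of NADPH supply -0.79, and 7 genes in all are red, each below 0.

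Several members are also made by cells other than hepatocytes, Hmox1 by macrophages above all, so the markers of those cells were measured in the same arrays. Lower and higher here mean an adjusted p below 0.05 (limma), as for 13.0% and 14.5% of all genes. Of 12 Kupffer cell and macrophage markers, 11 were tested and 8 were lower than the reference, with list medians of -0.60, -0.24, -0.63, -0.19 and -0.35 in livers 1 to 5. Their summed signal was 7958 to 11159 in liver and 10464 to 16583 in the reference. Livers 2 and 4, with the 2 highest Hmox1 ratios, also had the 2 highest list medians. Neutrophil markers (7 of 8 tested, 0 lower and 2 higher) had medians of 0.17, 0.59, 0.02, 0.08 and -0.06, the highest in liver 2, and a summed signal of 2157 to 5013 in liver and 2250 to 3452 in the reference. Sinusoidal endothelium markers (6 of 6 tested, 3 lower) had medians of -0.39, -0.37, -0.34, -0.45 and -0.12, and red blood cell markers (4 of 5 tested, 2 lower) of -1.35, -0.43, -0.53, -0.44 and -0.52. The part of these cells in the member ratios was not tested. Markers of other organs had a median of 0.01 over the 7 tested, and 0 were lower and 3 higher, but other probes of Myh6 (-1.79 against 0.47) and of Prm1 (-0.34 and -0.19 against 0.59) lay on the opposite side of 0, and Snap25 (0.53) has a single probe. A list of ATF4 and its targets, genes of the integrated stress response, had 1 of 7 tested genes higher and 0 lower, with Fgf21 highest at 1.05 ± 1.33 (SD, n = 5, limma adjusted p = 0.137) and Atf3 lowest at -0.17 ± 0.44. Without liver 5, where it stood at 3.31, Fgf21 was at 0.49, and Atf3 ranged from -0.29 without liver 1 to -0.040 without liver 3.

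Likeness of profile was measured by the root mean square difference of log2 ratios over the 5 livers, each gene centred on its own mean. For the 3 members whose ratio varied most, the named genes with the most similar profile were found among 11806 genes. For Hmox1 they were Tjp1 (a difference of 0.13), Clip3 (0.16) and Krt34 (0.18), against a median of 0.69 over all genes. For Cbr3 they were Nr1d1 (0.15), Insig1 (0.15) and Fdft1 (0.18), against a median of 0.62. Cbr3 and these genes had their highest ratio in liver 1, where the Cbr3 reference signal was far below that of the other arrays. Whether the reference shaped this likeness was not tested. For Gclc they were Oaf (0.04), Tmem150a (0.08) and Ppfibp2 (0.08), against a median of 0.50. With 5 livers and so many genes, close profiles are a description of these arrays.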

How the data were processed

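Per the file headers, the arrays were designed on build mm8 and read by the Feature Extraction software of Agilent, version 11.5.1.1. The authors deposited, for every spot, median intensity values of spot and background for each dye, which are not normalized. The same deposited files hold intensity values already corrected for background and dye, and a log10 ratio. A deposited table gives log2 ratios. In it, 99.7% of entries were within 0.001 of the log2 of liver over reference computed from the corrected intensities, which settles scale and direction. How its rows were selected is not stated.

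Ratios were computed with limma 3.58.1 in R 4.3.3 from the median intensities, since the files hold no mean intensity of a spot: normexp background correction (offset 50), loess within each array with control and outlier spots at weight 0, and the mean over spots of a probe. Outlier spots, 2.32% to 4.05% per array, were left out, and 0 probes were saturated. Of 41174 probes, 24375 were named through RefSeq accessions in a table of assembly GRCm38.p6. The fit was intercept only, with eBayes (trend, robust prior) over the 31887 probes tested, two-sided. Differences of the reference signal between arrays enter the ratios and their spread, and the fit has no separate term for them. A dye effect of a probe does not cancel, and the p-values reflect spread among 5 samples that may be partly technical. The number of arrays limits the precision.

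The genes named outside the members are those past adjusted p and 2-fold and, in each list, the highest, the lowest and the most variable gene. The members and lists were chosen with earlier results of these data known. The motif TGAGNNNGC, the SDs of each channel and the counts per liver were added after the data were seen. The scripts were tested on simulated data.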

Additional observations from a re-analysis of the deposited data

Results flagged for a closer look

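Of 57 series of 4 or 5 values tested (the ratio of each member probe and named gene, and both channels of the member probes), 6 had 1 array far from the rest. Chance gives about 1 in 20 for a single series. A ratio is made of its 2 channels and arrays are shared, so the series are not independent. The count can therefore not be read as an excess. In the reference channel array 1 stood low for 3 members, at 7.49 for Cbr3, 10.33 for Hmox1 and 7.45 for the dimmer Srxn1 probe (log2 signal). For 24009 probes with liver and reference above background on every array, the reference of array 1 was lower than on each other array by more than 1 log2 unit for 0.0541%, a limit that Cbr3 passed and Hmox1 and the Srxn1 probe did not. In the log2 ratio, liver 2 stood low for Nqo1 (-0.65) and Gpx4 (-0.58), and liver 1 for Gstm1 (-2.56).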

How the results depend on the processing

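No paired analysis was possible because all 5 samples form 1 group. The slide as a random block was not run, because no slide held more than 1 array. The count of members lower at 2-fold or more was 1, and it was 2 with processed signals and with the deposited log2 ratios, where Nqo1 joined Cbr3, and between 0 and 1 with each liver left out in turn (0 without liver 2). The count with no minimum ratio was 6, made up of the same 6 genes under every setting with all livers, and 7 with no filter on dim probes, where a Slc7a11 probe at background joined. With a liver left out it was between 3 and 5, the lowest without liver 5, where Cbr3, Nqo1 and Srxn1 remained. Over all probes, 102 were lower and 382 higher at 2-fold, against 323 and 1163 with processed signals, 322 and 1166 with the deposited ratios, 62 and 129 with the brightest probe of named genes and 63 and 85 with the probes of a gene averaged, where fewer features were tested. The variance test, which 0 probes passed, was passed by 99 with median centring and 12 with no filter, and by 0 members. Means that did not pass and changed sign were those of Rbx1 (-0.021) and Slc3a2 (-0.050) with median centring, Slc3a2 (-0.020) with probes averaged and, with each liver left out in turn, Hmox1 (-0.38 to 0.074), Abcc2 (-0.11 to 0.13) and Osgin1 (-0.031 to 0.74). The cause was not tested. The ratio of the dim Nqo1 probe is the member value that moved most between background corrections.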
